A study of Mus musculus with 6 samples.

Results

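The 10 genes described here encode the MHC class II system of the mouse: the chains of the classical molecules (H2-Aa, H2-Ab1 and H2-Eb1), the chains of the peptide editor H2-DM (H2-DMa, H2-DMb1 and H2-DMb2), the chains of its modulator H2-O (H2-Oa and H2-Ob), the invariant chain (Cd74) and the transactivator (Ciita). They were taken by gene symbol, and all 10 are among the 35275 genes of the deposited table. The table gives bulk RNA sequencing of whole tongues in FPKM, a read number scaled to gene length and library size. It holds 3 libraries from tongues lacking Aim2, a cytosolic sensor of double-stranded DNA (genotype AIM2 KO, written Aim2 KO below), and 3 from wild type tongues (WT). All came from mice that drank water with 4NQO (4-nitroquinoline 1-oxide, a carcinogen that damages DNA and produces squamous lesions of the oral epithelium) at 100 µg/ml for 20 weeks, so the comparison is between genotypes under carcinogen and holds no untreated tongue. The labels used here give no strain, age, sex or deleted exons. They also do not say whether the libraries are of different mice, and the p-values speak for the spread among these 6 libraries, which may be technical. In the library names, the genotype letters are followed by the same leading digits in all 3 libraries of a genotype. These digits differ between the genotypes. The labels used here do not say what the digits mark, and whatever it is cannot be told apart from genotype.

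Class II molecules carry peptides from endosomes to the cell surface, where CD4 T cells read them. An alpha and a beta chain assemble on the invariant chain, proteases trim that chain to a fragment in the peptide groove, and H2-DM exchanges the fragment for antigen peptide while H2-O restrains H2-DM. Dendritic cells, B cells and macrophages express the system constitutively or readily, and many other cells, including keratinocytes, can be induced by interferon gamma, whose signal reaches the Ciita promoter through factors that include IRF1. CIITA binds no DNA itself. It is recruited by RFX, CREB and NF-Y proteins that sit together on a conserved promoter module with an X box and a Y box.

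Libraries held between 21959204 and 25369400 reads. Aim2 itself had 3, 4 and 10 reads in Aim2 KO replicates 1, 2 and 3 and 14, 25 and 30 reads in wild type replicates 1, 2 and 3, in the direction of the labels. The tissue markers of tongue were present, with Krt13 of the oral epithelium at 14017 to 16390 FPKM and the muscle actin Acta1 at 2111 to 4082 FPKM, although the fast muscle troponin Tnnc2 was listed at 0 to 0.114 FPKM. Aim2 KO replicate 1 stood apart in tissue composition. Its mean log2(FPKM + 1) over 10 skeletal muscle markers was 7.56 against 8.30 to 8.57 in the other libraries, and over 8 endothelial markers it was 1.72 against 2.13 to 2.88. Where leaving it out ends an overlap of a member or a ratio, or changes the call of a member, that is said below. For other genes, apart from those of the promoter complex, overlaps are given over all 6 libraries only, and some of them end without it.

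The promoter module shows what the members share in sequence. Promoter windows of RefSeq (build GRCm38.p6; 250 bases before to 50 after each annotated start) matched 7 of the 10 members, in 8 windows, and not H2-Ab1, Cd74 or Ciita. Of the 7, 6 held TGATTGG, which contains the inverted CCAAT core of the Y box that NF-Y binds. The stretches below run 5′ to 3′ on the strand of the gene, from 50 bases before that match to 10 bases after it, 67 bases each. Capitals mark TGATTGG, an X box form (AAC, any 2 bases, then ATGATG) and the CREB site TGACGTCA.
H2-Aa, chr17:34287857-34287923, minus strand: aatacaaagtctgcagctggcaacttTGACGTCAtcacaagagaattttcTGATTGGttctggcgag
H2-Eb1, chr17:34305756-34305822, plus strand: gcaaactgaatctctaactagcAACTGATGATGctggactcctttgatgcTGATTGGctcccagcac
H2-DMb1, chr17:34153078-34153144, plus strand: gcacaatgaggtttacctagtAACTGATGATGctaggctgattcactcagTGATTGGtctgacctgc
H2-DMb2, chr17:34145107-34145173, plus strand: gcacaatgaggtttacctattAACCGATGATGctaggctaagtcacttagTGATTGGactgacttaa
H2-Oa, chr17:34092284-34092350, plus strand: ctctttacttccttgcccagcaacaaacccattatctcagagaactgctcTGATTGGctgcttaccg
H2-Ob, chr17:34238796-34238862, plus strand: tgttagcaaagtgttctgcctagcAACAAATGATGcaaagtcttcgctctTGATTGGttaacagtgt

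In H2-Eb1, H2-DMb1, H2-DMb2 and H2-Ob the X box form ended 17, 18, 18 and 15 bases before the Y box core. H2-Aa lacked it and had the CREB site 16 bases before the core, and H2-Oa had neither. The core lay 38 to 85 bases before the annotated start in these 6 genes. Searched on both strands of all 32851 windows of 300 bases, TGATTGG occurred in 7.82%, the X box form in 0.137% and the palindrome TGACGTCA in 1.79%. The X form followed by the Y core at a distance of 15 to 25 bases occurred in 4 windows (0.0122%), those of H2-DMb1, H2-DMb2, H2-Eb1 and H2-Ob. The letters and the distance were written after reading these promoters, so that count describes the members and tests nothing. The windows of H2-DMa held none of the 3 motifs. They lie at chr17:34122582-34122881 and chr17:34125268-34125567, ahead of the start that the deposited table gives for this gene (34135182).

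Per kilobase, the members fell into 3 tiers. In wild type tongues Cd74 was the most abundant, with a mean of 83.3 FPKM, followed by H2-Ab1 at 52.5, H2-Aa at 39.2 and H2-Eb1 at 38.8 FPKM. The ranges of H2-Aa and H2-Eb1 overlapped, while those of Cd74, H2-Ab1 and H2-Aa did not. The H2-DM chains came next, H2-DMa at 3.51 and H2-DMb1 at 3.43 FPKM with overlapping ranges, which put H2-Eb1 11.1-fold above H2-DMa. H2-DMb2 at 0.507, Ciita at 0.252, H2-Ob at 0.0902 and H2-Oa at 0.0879 FPKM were below 1 FPKM, and in this low tier H2-DMb2 overlapped with Ciita and H2-Ob with H2-Oa. In Aim2 KO tongues H2-DMb2 was at 1.06 FPKM and the other 3 low members stayed below 1 FPKM. H2-DMb1 stood above H2-DMa there without overlap of their ranges (6.79 to 8.27 against 4.73 to 5.36 FPKM), H2-Oa stood above H2-Ob with overlap (means 0.219 and 0.152 FPKM), and the range of H2-Ab1 overlapped with that of H2-Aa.

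**Figure D1:**
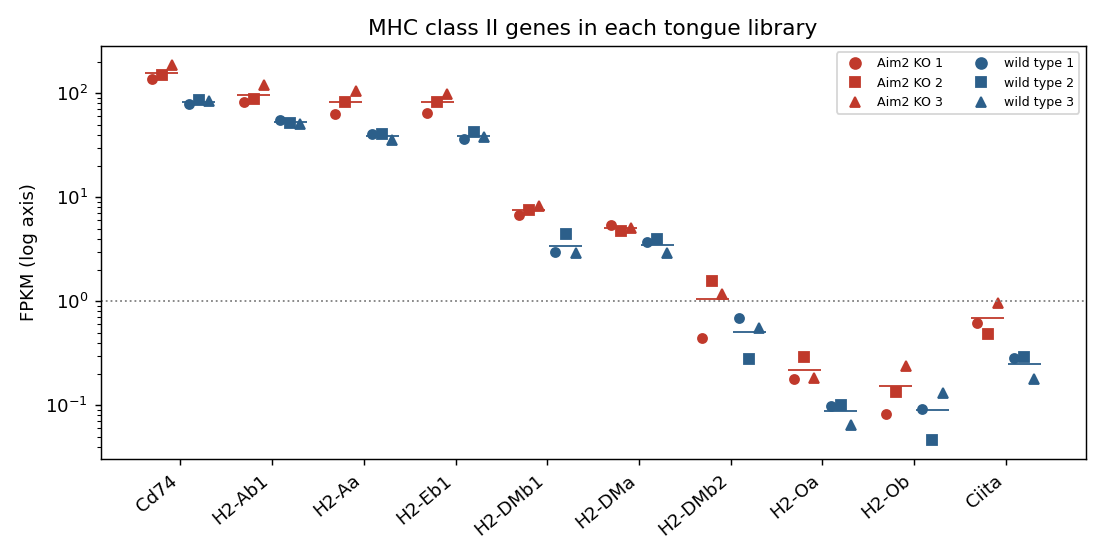
FPKM on a log axis for the 10 class II genes, ordered by role, with 1 point per library and short lines at the group means; the dotted line is 1 FPKM, the mean that a gene needed to be tested. For 8 of the 10 genes all Aim2 KO points lie above all wild type points, and the ranges overlap for H2-DMb2 and H2-Ob. The first held for 4.98% of all genes tested and for 6.91% of genes with a mean from 0.1 to 1 FPKM.

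The classical chains were more abundant in the Aim2 KO tongues in every library, by close to 2-fold, but did not pass the test over all genes. H2-Aa, the alpha chain of I-A, had 63.6, 82.2 and 104 FPKM in Aim2 KO replicates 1, 2 and 3 against 40.8, 41.1 and 35.8 FPKM in wild type replicates 1, 2 and 3. H2-Ab1, its beta chain, had 83.1, 88.2 and 120.0 FPKM against 54.9, 52.1 and 50.5 FPKM. H2-Eb1, the beta chain of I-E, had 64.3, 82.6 and 99.3 FPKM against 36.3, 42.5 and 37.7 FPKM. In all 3 genes Aim2 KO replicate 3 was the highest and replicate 1 the lowest of its group, the wild type libraries lay close together, and the groups did not overlap. The log2 differences (Aim2 KO less wild type, of log2(FPKM + 1) here and below) were 1.04 (SE 0.18) for H2-Aa, 0.86 (SE 0.15) for H2-Ab1 and 1.04 (SE 0.17) for H2-Eb1, and the adjusted p from limma was 0.504 for each. In bulk tissue, more cells of a type and more RNA per cell cannot be told apart.

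The partner of H2-Eb1 was not seen. H2-Ea-ps, the pseudogene row for the I-E alpha chain, had 0 reads in all 6 libraries, which allows up to 0.172 to 0.199 FPKM per library (3 reads, counting error only). C57BL/6 mice are known to make no I-E alpha chain, but the labels give no strain. The class II pseudogenes H2-Pa and H2-Pb were also at 0, and H2-Eb2, a second E beta locus, had 5, 10 and 7 reads in Aim2 KO against 4, 5 and 0 reads in wild type.

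Cd74, the invariant chain, followed the classical chains. It had 137, 149 and 188 FPKM in Aim2 KO against 78.7, 86.7 and 84.6 FPKM in wild type. Again Aim2 KO replicate 3 was the highest, replicate 1 the lowest of its group, and the groups did not overlap. The log2 difference was 0.90 (SE 0.14, limma adjusted p = 0.504). These values rest on 2726 to 5832 reads per library, so counting error is small beside the spread between libraries.

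The chains of H2-DM, which loads peptide onto the classical molecules, were higher in Aim2 KO by unequal amounts, without passing the test. H2-DMb1, a DM beta chain, had 6.79, 7.49 and 8.27 FPKM in Aim2 KO against 2.96, 4.43 and 2.89 FPKM in wild type, a log2 difference of 0.96 (SE 0.16, limma adjusted p = 0.504). H2-DMa, the alpha chain, had 5.36, 4.73 and 5.12 FPKM against 3.69, 3.95 and 2.89 FPKM, a log2 difference of 0.44 (SE 0.13, limma adjusted p = 0.9998). Neither gene overlapped between groups, and H2-DMa was the 1 tested member that was highest in Aim2 KO replicate 1. H2-DMb2, the second DM beta gene, had 0.449, 1.56 and 1.17 FPKM against 0.686, 0.278 and 0.558 FPKM, so its groups overlapped. Its 15, 58 and 38 reads in Aim2 KO and 25, 10 and 21 reads in wild type give a pooled rate ratio of 2.12, and counting error alone (exact binomial, 95%) allows 1.52 to 2.97. The excess came from Aim2 KO replicates 2 and 3, while replicate 1 lay below wild type replicates 1 and 3. Without Aim2 KO replicate 1 the groups did not overlap.

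The promoter stretches of H2-DMb1 and H2-DMb2 printed above are identical at 58 of 67 bases, and their transcripts share stretches too. Of the distinct 50-base words in the GENCODE M21 transcripts of H2-DMb1, 22.7% occur in another gene, all of them in H2-DMb2, and of those of H2-DMb2 25.9% do. The authors' counting could therefore split reads between these copies. H2-DMa shares 8.43% of its words with Brd2 and H2-Oa 15.5% with BC051537, while Cd74, H2-Ab1, H2-Eb1 and H2-Ob share none, H2-Aa shares 0.514% and Ciita 1.46%.

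H2-O was close to the detection limit. H2-Oa, the alpha chain, had 5, 9 and 5 reads in Aim2 KO (0.180, 0.293 and 0.185 FPKM) against 3, 3 and 2 reads in wild type (0.0991, 0.1004 and 0.0640 FPKM). The groups do not overlap, but the pooled rate ratio of 2.54 has a counting interval of 1.06 to 6.70. H2-Ob, the beta chain, had 5, 9 and 14 reads (0.0831, 0.135 and 0.239 FPKM) against 6, 3 and 9 reads (0.0914, 0.0463 and 0.133 FPKM). Its groups overlapped, and the interval of its rate ratio (1.66, from 0.887 to 3.19) includes equality. Without Aim2 KO replicate 1 its groups did not overlap, narrowly, at 0.135 against 0.133 FPKM (9 reads each).

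Ciita, the transactivator of the other class II genes, had 74, 64 and 111 reads in Aim2 KO against 37, 37 and 24 reads in wild type. In FPKM these were 0.625, 0.487 and 0.962 against 0.286, 0.290 and 0.180. The groups did not overlap, Aim2 KO replicate 3 was again the highest, and the pooled rate ratio was 2.71 with a counting interval of 2.14 to 3.46. Its mean over the 6 libraries was below 1 FPKM, so it was not tested in the main fit. Without a filter on expression its limma adjusted p was 1, as for every member. Because the added 1 FPKM outweighs such low values, its log2 difference of 0.43 understates the ratio.

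Across the family, 6 of the 10 members reached a mean of 1 FPKM and were tested among 12144 genes. All 6 were higher in Aim2 KO without overlap of the groups, which held for 4.98% of all genes tested (1.48% were lower without overlap). All 6 also had an unadjusted p under 0.05 in that direction, which held for 1.93% of genes, and for 2.5% in either direction. None of the 6 passed limma at an adjusted p of 0.05 (0 of 6 members; 1 gene in all, or 0.00823%). Their median log2 difference was 0.93, against 0.02 over all genes tested, of which the central range from the 5th to the 95th percentile ran from -0.25 to 0.26. Of the 4 low members, Ciita and H2-Oa did not overlap between groups, in the same direction, and among the 4460 genes with a mean from 0.1 to 1 FPKM that was so for 6.91%. These shares describe the members and are no test of the list. Over the 6 libraries the Pearson correlation between tested members ran from 0.83 to 0.99 (15 pairs, a description over points that share the same libraries).

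The call depended on Aim2 KO replicate 1, in which 8 of the 10 members were at their lowest for that genotype. Without this library H2-Aa, H2-Eb1 and Cd74 passed limma over all genes (log2 differences 1.22, 1.20 and 1.00, adjusted p = 0.0264, 0.0253 and 0.0482), as did 0.0983% of all genes in that direction. The same 3 passed with the muscle marker level as a covariate (0.0988% of genes), and 5 members, all but H2-DMa, with array quality weights (0.535% of genes). These fits are not independent of each other, because that library has the lowest muscle level and received the lowest weight (0.241, against 4.18 for Aim2 KO replicate 3). Without Aim2 KO replicate 3 the median log2 difference of the 6 members was 0.82 and 0 passed. In absolute terms, the 10 genes together took 0.0464%, 0.0531% and 0.0674% of the reads of Aim2 KO replicates 1, 2 and 3 and 0.0279%, 0.0297% and 0.0276% of the reads of wild type replicates 1, 2 and 3.

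**Figure D2:**
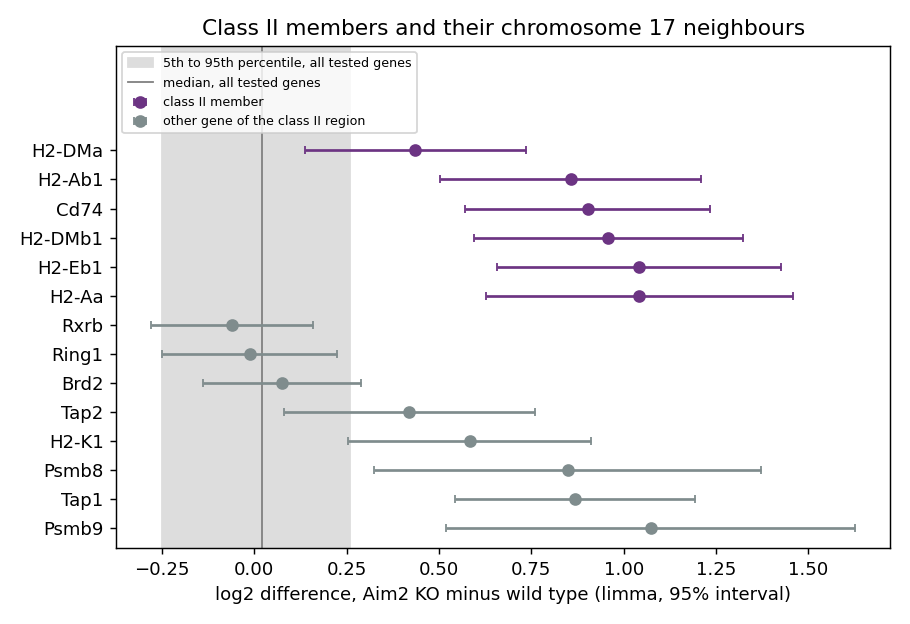
Log2 differences (points) with limma 95% intervals (bars) for the 6 tested class II members and the 8 other tested genes of the surrounding region of chromosome 17; the grey band is the 5th to 95th percentile of all tested genes. All members except H2-DMa have intervals entirely to the right of the band, and Rxrb, Ring1 and Brd2 have their points within it.

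Ratios within a library show whether members moved together, since a library's scale cancels out. The ratio of H2-Aa to H2-Ab1, the chains of I-A, was 0.766, 0.932 and 0.868 in Aim2 KO and 0.743, 0.788 and 0.709 in wild type (exact permutation test, two-sided, p = 0.2). The ratio of Cd74 to H2-Ab1 was 1.65, 1.69 and 1.57 against 1.43, 1.66 and 1.68 (exact permutation p = 0.8), and that of H2-Eb1 to H2-Ab1 was 0.775, 0.935 and 0.827 against 0.661, 0.816 and 0.745 (exact permutation p = 0.2). These 3 ratios overlapped between groups, although without Aim2 KO replicate 1 the first and the last of them were higher in Aim2 KO without overlap (log2 differences 0.27 and 0.25). The ratio of H2-DMb1 to H2-DMa did not: it was 1.27, 1.58 and 1.61 in Aim2 KO and 0.801, 1.12 and 1.00 in wild type (log2 difference 0.62, exact permutation p = 0.1, the smallest that 3 against 3 allows). Adjusted over the 16 ratios examined, the smallest p was 0.267, so none passed. The ratios of H2-DMb2 to H2-DMb1, of H2-Ob to H2-Oa and of H2-DMa to H2-Ab1 overlapped between groups (exact permutation p = 0.8, 0.6 and 0.2). Without Aim2 KO replicate 1 the ratio of H2-DMa to H2-Ab1 was lower in Aim2 KO without overlap (log2 difference -0.47).

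**Figure D3:**
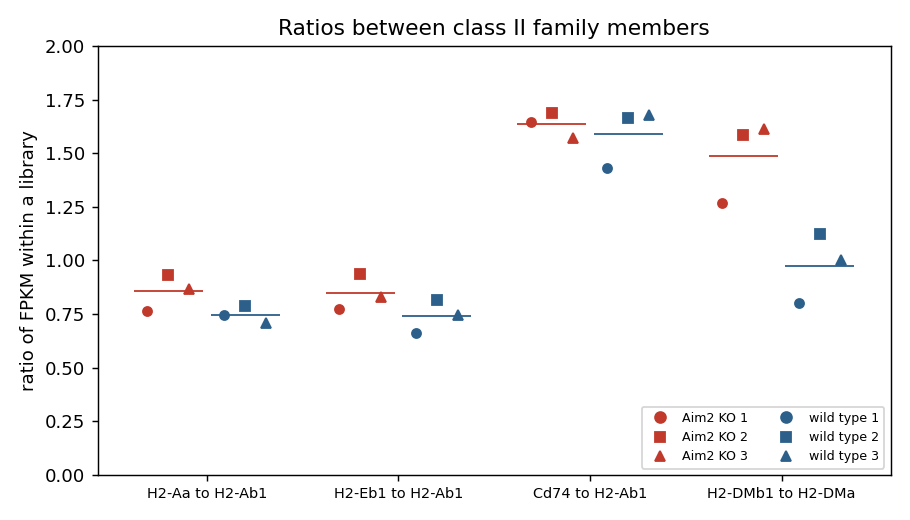
Ratios of FPKM within each library for 4 pairs of class II genes, with 1 point per library and short lines at the group means. The groups overlap for the first 3 pairs, and for H2-DMb1 to H2-DMa the Aim2 KO libraries (1.27 to 1.61) all lie above the wild type libraries (0.801 to 1.12).

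The 8 members on chromosome 17 lie between 34092340 and 34316199, from H2-Oa to H2-Eb1, in coordinates of the deposited table, which overlap the same genes of GRCm38 for all 10 members. Cd74 lies on chromosome 18 (60803848 to 60812646) and Ciita on chromosome 16 (10488178 to 10527564), so members on 3 chromosomes had the same direction. The region with 100 kb on either side holds 28 other genes, of which 8 were tested. Of these, 6 were higher without overlap and 0 lower without overlap (4.98% and 1.48% of all genes tested), and 0 passed the threshold. They were not alike. Tap1, which pumps peptides into the endoplasmic reticulum for class I, had 15.2, 15.7 and 17.8 against 10.3, 7.995 and 7.25 FPKM, and the immunoproteasome subunits Psmb9 and Psmb8 and the class I chain H2-K1 had log2 differences of 1.07, 0.85 and 0.58. The other 4 tested genes are named after their values were seen: Tap2, the partner of Tap1, had 0.42, and the Polycomb gene Ring1, the retinoid X receptor gene Rxrb and the bromodomain gene Brd2 had -0.01, -0.06 and 0.08.

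Upstream of the promoters, no gene for the proteins that recruit CIITA passed the test. Of the 11 genes for RFX, NF-Y, CREB and coactivators, all were tested, 7 were higher and 4 lower, 0 lacked overlap between groups, and the median log2 difference was 0.10. Without Aim2 KO replicate 1, Rfx5, Nfyc and Kat2b were higher and Rfxap lower without overlap. Groups separate more easily with 1 library fewer, and the share over all genes was not taken, so no change of these genes can be read from this. Rfx5, the RFX subunit with the smallest p, had 1.27, 1.73 and 1.65 FPKM in Aim2 KO against 1.21, 1.32 and 1.05 FPKM in wild type (log2 difference 0.21, limma adjusted p = 0.9998). Rfxap and Rfxank, the other RFX subunits, had log2 differences of -0.07 and 0.05, and the NF-Y subunit genes Nfya, Nfyb and Nfyc had 0.11, -0.05 and 0.10.

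Of the interferon gamma route to Ciita, 9 of 10 listed genes were tested, 7 were higher and 2 lower, with a median of 0.10 and 0 past the threshold. The 1 listed gene with an unadjusted p under 0.05 was Irf1, which encodes a transcription factor that acts on the Ciita promoter. Irf1 had 9.55, 7.30 and 9.50 FPKM in Aim2 KO against 5.29, 4.88 and 3.45 FPKM in wild type without overlap (log2 difference 0.83, SE 0.17, limma adjusted p = 0.727). Unlike for the classical chains, Aim2 KO replicate 2 was the lowest of its group for Irf1. Ifng itself, the ligand, had 0.184, 0.232 and 0.566 against 0.135, 0.0683 and 0.0653 FPKM without overlap and was too low to be tested. These values rest on 5, 7 and 15 reads in Aim2 KO against 4, 2 and 2 reads in wild type. Among genes with a mean from 0.1 to 1 FPKM, 6.91% were higher without overlap. The receptor genes Ifngr1 and Ifngr2 had log2 differences of 0.20 and 0.06, the kinase genes Jak1 and Jak2 had 0.15 and 0.10, and the inhibitor gene Socs1 had -0.03.

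Downstream, the enzymes that cut antigen and invariant chain did not pass the test either. Of 11 genes 10 were tested, 8 were higher and 2 lower, with a median of 0.09 and 0 past the threshold. Ctss, cathepsin S, which makes the late cuts in the invariant chain of dendritic and B cells, stood out with 18.7, 25.3 and 39.2 FPKM in Aim2 KO against 10.99, 13.3 and 12.9 FPKM in wild type (log2 difference 1.04, SE 0.24, limma adjusted p = 0.985). The groups did not overlap, and as for the classical chains Aim2 KO replicate 3 was the highest and replicate 1 the lowest of its group. Ctsh and Ifi30, a thiol reductase of endosomes, also did not overlap (log2 differences 0.28 and 0.19). Of all genes tested 4.98% were higher without overlap. Ctsl, cathepsin L, which makes the corresponding cut in cortical thymic epithelium, had -0.12, and the abundant general proteases Ctsb and Ctsd had 0.04 and -0.07. With array quality weights Irf1 and Ctss passed over all genes (adjusted p = 0.0389 and 0.0183), along with Tap1, B2m and Psmb9 (adjusted p = 0.0213, 0.0213 and 0.0259).

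**Figure D4:**
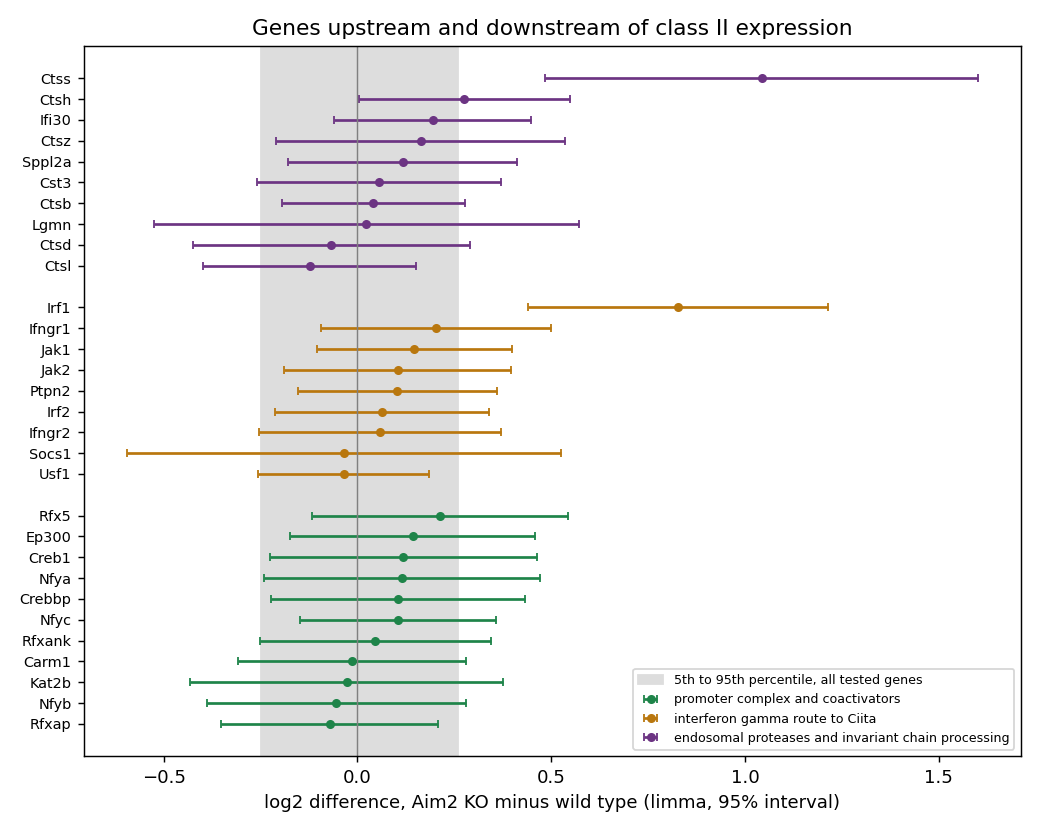
Log2 differences (points) with limma 95% intervals (bars) for the tested genes of the promoter complex, the interferon gamma route to Ciita and the endosomal enzymes; the grey band is the 5th to 95th percentile of all tested genes. The points of Ctss (1.04), Irf1 (0.83) and Ctsh (0.28) lie outside the band, and the others within it.

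Among the genes that act on finished class II molecules, Cd83 and March1 were sparse and March8 was not. March1 and March8 encode ubiquitin ligases that send class II to lysosomes, and CD83 opposes March1. Of the list of 3, March8 and Cd83 were tested: March8 had 13.6, 17.98 and 15.7 against 16.7, 16.0 and 14.3 FPKM, and Cd83 had 1.45, 0.971 and 1.81 against 0.835, 0.692 and 0.736 FPKM without overlap (log2 difference 0.44, limma adjusted p = 0.9998). Cd83 had a wild type mean under 1 FPKM, so it was tested only because of its Aim2 KO level. March1, named after its values were seen, had 0.308, 0.757 and 0.578 against 0.263, 0.138 and 0.283 FPKM. Of the 5 ligands and partners of surface CD74, 3 were tested and 2 were higher: Mif, the cytokine that binds CD74, had a log2 difference of -0.03, Cd44 had 0.11, and the chemokine receptor gene Cxcr4 had 1.79, 1.97 and 2.42 against 1.10, 1.53 and 1.35 FPKM without overlap (log2 difference 0.39, limma adjusted p = 0.9998).

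On the T cell side, 2 of 9 genes were tested, Trac and Cd3g (log2 differences 1.17 and 0.32, 0 past the threshold), and Trac had a wild type mean under 1 FPKM. Cd4, the coreceptor for class II, and Lag3, an inhibitory receptor that also binds class II, were below the filter and are named after their values were seen. Cd4 had 0.485, 0.463 and 1.22 FPKM in Aim2 KO against 0.249, 0.172 and 0.152 FPKM in wild type, and Lag3 had 0.532, 0.600 and 0.842 against 0.0813, 0.185 and 0.335 FPKM. For both the groups did not overlap and Aim2 KO replicate 3 was highest, as for Ciita and the classical chains. In the rest of the list Trac and Cd3e did not overlap either, while Cd3d, Cd3g, Cd28, Icos and Cd40lg overlapped. Higher without overlap were 4.98% of all genes tested and 6.91% of genes with a mean from 0.1 to 1 FPKM. The list was not tested as a whole. Cd3g was highest in Aim2 KO replicate 1, at 2.47 FPKM against 2.09 FPKM in replicate 3. Of the 7 listed genes for costimulatory and inhibitory molecules of presenting cells, 3 were tested. The log2 differences were 0.60 for Cd274, which encodes an inhibitory ligand, and 0.06 for Icosl and -0.02 for Cd80, which encode costimulatory ligands. Cd86, below the filter and also named after its values were seen, had 0.786, 1.04 and 1.45 against 0.401, 0.487 and 0.590 FPKM.

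The class I counterpart was tested in all of its 8 genes. All 8 were higher, 7 without overlap (4.98% of all genes tested were higher without overlap). The median log2 difference was 0.72 against 0.93 for class II, and this difference between the lists was not tested. Nlrc5, the transactivator of class I, was the 1 gene that overlapped and is named for that: it had 3.49, 5.17 and 6.24 FPKM in Aim2 KO against 3.53, 3.41 and 3.60 FPKM in wild type, with Aim2 KO replicate 1 inside the wild type range, where Ciita was above it.

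The levels of presenting cell markers were read beside class II, and their part in the result was not tested. Of 14 pan-leukocyte markers 11 were tested, all higher and 9 without overlap (4.98% of all genes tested), with a median log2 difference of 0.68. Ptprc and Rac2 are among them with wild type means under 1 FPKM (0.993 and 0.569), so they were tested only because of their Aim2 KO levels. The summed level of the list was 62.6 to 90.7 FPKM in Aim2 KO and 36.0 to 43.2 FPKM in wild type. Ptprc, which encodes the leukocyte antigen CD45, had 1.58, 2.11 and 3.43 against 0.761, 1.04 and 1.18 FPKM. Per unit of Ptprc, H2-Ab1 was 52.5, 41.9 and 34.96 in Aim2 KO and 72.2, 50.1 and 42.9 in wild type, and Cd74 was 86.4, 70.7 and 54.9 against 103, 83.4 and 71.9. Both ratios were lower on average in Aim2 KO and overlapped between groups (exact permutation p = 0.4 for each). Without Aim2 KO replicate 1 neither ratio overlapped, and the log2 differences were -0.49 for H2-Ab1 and -0.45 for Cd74. The planned ratio set H2-Ab1 against the mean log2(FPKM + 1) of all 14 markers. It was 20.3, 20.0 and 21.3 in Aim2 KO and 19.1, 16.0 and 17.1 in wild type, without overlap (log2 difference 0.24, exact permutation p = 0.1). The summed FPKM of the markers, also used for the lists below, was an alternative chosen after seeing the data. Relative to that sum, H2-Ab1 was 1.33, 1.34 and 1.32 in Aim2 KO and 1.53, 1.21 and 1.37 in wild type, with overlap (log2 difference -0.03, exact permutation p = 0.7).

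Among the cell types that present antigen, dendritic and Langerhans cell markers had a summed level of 10.6 to 12.9 FPKM in Aim2 KO and 7.14 to 7.82 FPKM in wild type. H2-Ab1 relative to that sum was 7.82, 7.99 and 9.29 in Aim2 KO and 7.70, 6.74 and 6.46 in wild type. The groups did not overlap (log2 difference 0.26, exact permutation p = 0.1). The planned ratio, to the mean log2(FPKM + 1) of the list, did not overlap either (log2 difference 0.63, exact permutation p = 0.1). Most of these markers are below 1 FPKM, where the added 1 FPKM shrinks their differences, so the larger value is no separate support. Of the 12 markers 4 were tested, all higher and 2 without overlap (4.98% of all genes tested were higher without overlap). Of these 2, Itgax, the integrin CD11c, had 1.23, 1.51 and 2.95 against 0.684, 0.957 and 0.965 FPKM. The other, Ccl22, a chemokine of dendritic cells, had a log2 difference of 0.43. Itgax had a wild type mean under 1 FPKM, so it was tested only because of its Aim2 KO level. Cd207, langerin, which defines Langerhans cells, had 2.17, 1.67 and 1.61 against 1.41, 1.64 and 1.70 FPKM, with overlap and in an order of libraries opposite to that of the classical chains in Aim2 KO. Of 11 macrophage markers 8 were tested, 7 higher and 1 lower, with a median log2 difference of 0.39. Among them 1 was higher without overlap, beside 4.98% of all genes tested. Their summed level was 67.5, 152 and 169 FPKM in Aim2 KO and 74.7, 92.3 and 91.2 FPKM in wild type. Aim2 KO replicates 2 and 3 were above every wild type library, and replicate 1 was the lowest of all 6, while its H2-Ab1 was above every wild type library. H2-Ab1 relative to the summed macrophage markers was 1.23, 0.579 and 0.710 in Aim2 KO and 0.736, 0.565 and 0.554 in wild type, with overlap (log2 difference 0.38, exact permutation p = 0.4). Without Aim2 KO replicate 1 that difference was 0.07.

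B cell markers were nearly absent. Of 10 markers, 0 were tested, Pax5 had 0 reads in every library, and 2 reached a mean of 0.1 FPKM. Their summed level was 0.658 to 0.946 FPKM in Aim2 KO and 0.358 to 0.641 FPKM in wild type, with Cd79a at 0 to 0.0812 FPKM and Ms4a1 at 0 to 0.0651 FPKM. Keratinocyte markers, all 10 tested, were higher in 5 and lower in 5 with a median log2 difference of 0.02, and their summed level was 32116 to 41932 FPKM in Aim2 KO and 32520 to 39981 FPKM in wild type. H2-Ab1 relative to that sum was 0.00198, 0.00275 and 0.00329 in Aim2 KO and 0.00139, 0.00160 and 0.00126 in wild type, without overlap (log2 difference 0.89, exact permutation p = 0.1). Adjusted over the 7 ratios to summed marker lists, the smallest p was 0.233, so none passed.

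**Figure D5:**
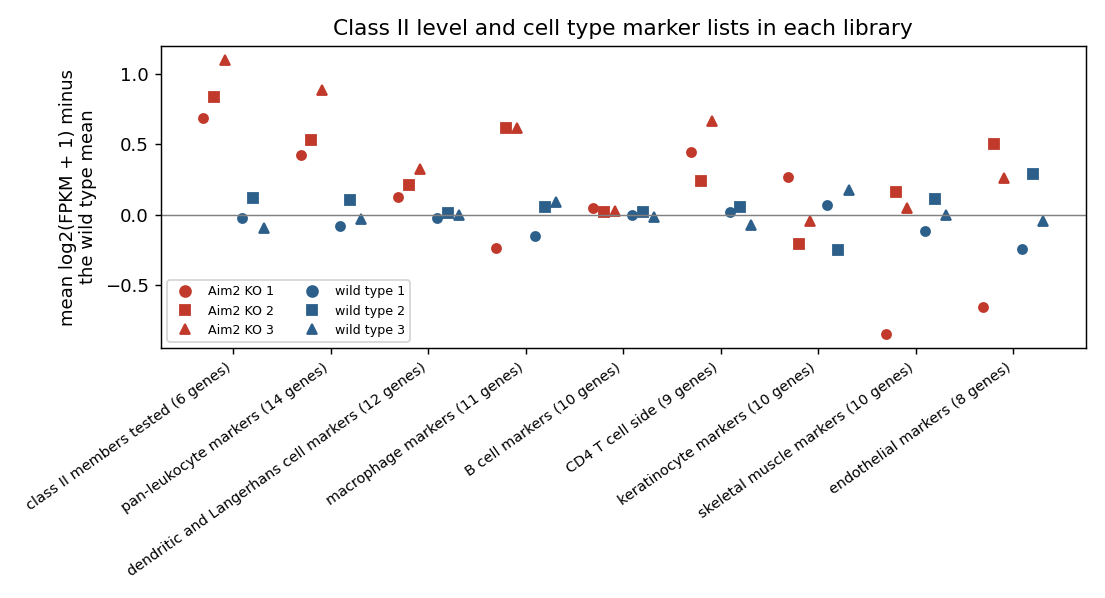
Mean log2(FPKM + 1) of the 6 tested class II members and of each marker list in each library, as the difference from the wild type mean of that list. Class II, pan-leukocyte markers and dendritic and Langerhans cell markers are above 0 in all 3 Aim2 KO libraries in the same order. The CD4 T cell side is above 0 in all 3 in another order. Macrophage markers are below 0 in Aim2 KO replicate 1, and B cell markers lie near 0 in all libraries. The added 1 FPKM shrinks the differences of the low marker lists, so their heights do not compare with that of class II.

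The genes most like class II over the 6 libraries were ranked by the Pearson correlation of log2(FPKM + 1) with the mean of the 6 tested members, each scaled to an SD of 1. The 6 highest among the other tested genes were Coro1a (0.996), H2-Q7 (0.991), Aif1 (0.987), Fam210b (0.986), Ddx51 (0.986) and Samhd1 (0.986). With 6 libraries in 2 groups, any gene that separates the genotypes ranks high, and Fam210b and Ddx51 did so with log2 differences of only 0.11 and 0.10. Coro1a, an actin regulator of leukocytes, had 8.46, 8.79 and 11.7 FPKM in Aim2 KO against 4.35, 5.38 and 4.13 FPKM in wild type, and Aif1, a macrophage marker, had 1.93, 2.97 and 3.38 against 0.790, 0.895 and 0.541 FPKM. Aif1 had a wild type mean under 1 FPKM and was ranked only because of its Aim2 KO level.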

How the data were processed

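RNA of whole tongues was sequenced after library construction at a sequencing company, per the labels' protocols. The table deposited by the authors holds FPKM values, 1 column per library, unpooled. The sources used here state no aligner, counter, strandedness or build. Multiplying FPKM by gene length and dividing by a constant of each library returned whole reads (100% of values above 0, within 0.01 of a read), hence read numbers and totals of 21959204 to 25369400. GENCODE M21 (GRCm38) holds 34490 of its gene IDs, 72.3% with identical coordinates.

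Libraries were grouped by genotype. In R 4.3.3, limma 3.58.1 with its trend option was fitted to log2(FPKM + 1) of 12144 genes whose mean reached 1 FPKM, two-sided, with Benjamini-Hochberg adjustment over all of them and a threshold of 0.05, and was tested on simulated data. Ratios were compared by exact permutation tests. Named were Aim2, all 10 members, up to 4 genes with the smallest p of each other list and of the class II region, any gene of the promoter, interferon gamma and protease lists, and the 6 genes most like the members; Krt13, Acta1, Tnnc2, Cd79a, Ms4a1 and Pax5 serve as tissue and cell type markers. The members, lists and alternatives were chosen with earlier results of these data known. A gene of the interferon gamma list is not reported here and was left out of that list's counts. All other entries of the lists matched, 3 of them (March1, March8 and Adgre1) by gene ID because the table holds other names for them. Alternatives were other pseudocounts, filters, scalings, weights, voom on the recovered reads, a muscle covariate, a replicate block and leaving out each library.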

Additional observations from a re-analysis of the deposited data

How the results depend on the processing

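Under 18 alternatives each, the 6 tested members kept a positive difference. The median log2 difference of the members tested was 0.65 without a filter and with a filter at 0.1 FPKM, since the 4 low members then entered, and 0.82 to 1.01 when any 1 library was left out. The count of members past the threshold was 5 with array quality weights, 3 with the skeletal muscle covariate and 0 to 3 when 1 library was left out, with 3 only without Aim2 KO replicate 1. With array quality weights 5 genes of the other pathway lists passed, where 0 did otherwise (0.535% of all genes passed upward with these weights). The 2 that passed in the class II region, Tap1 and Psmb9, are among these 5. The marker lists were not part of this count. The cause of these moves was not tested. Over all genes tested 57.2% were higher, against 46.9% with median-of-ratios scaling, 50.7% with quantile normalization and 66.7% without Aim2 KO replicate 1, where the median of all genes was 0.02, -0.01, 0.0021 and 0.06. With the replicate number as a block 0 members passed (adjusted p = 0.712 for 5 of them). The labels give no pairing by number. Same-numbered libraries correlated in their deviations from the group means by 0.351, 0.458 and 0.030 (12144 genes). Aim2 KO replicates 1 and 2 each correlated best with the wild type library of the same number, and Aim2 KO replicate 3 with wild type replicate 2 (0.213). The ratios of Cd74 to H2-Ab1 and of H2-DMb2 to H2-DMb1 turned sign when a library was left out (-0.03 to 0.08 and -0.76 to 0.28 on the log2 scale), and the other 14 ratios did not. The log2 difference of the ratio of H2-Ab1 to the mean log2(FPKM + 1) of a marker list was 0.24 for pan-leukocyte, 0.63 for dendritic and 0.82 for B cell markers, each without overlap. Over the summed FPKM, an alternative chosen after seeing the data that adds no 1 FPKM, it was -0.034, 0.26 and 0.20, and the other 4 lists kept their direction. By that measure the groups overlapped for pan-leukocyte and B cell markers and did not for dendritic markers. Depth limits H2-Oa and H2-Ob, at 2 to 14 reads per library.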
